A study of Mus musculus with 6 samples.

Results

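The coagulation and fibrinolysis genes are 31 genes of blood clotting and of clot removal, chosen by name: the clotting factors, the contact system, the inhibitors that limit clotting, and the enzymes, receptors and inhibitors that act on fibrin. All 31 members were in the gene table of 24532 genes, and all 31 passed the filter on low counts that left 14415 genes for testing. Most of these proteins circulate in plasma after secretion by hepatocytes, the main cells of the liver. Clotting runs as a chain of proteases in which each activates the next, thrombin turns fibrinogen into fibrin, factor XIII crosslinks the fibrin, and plasmin later dissolves it. Endothelial cells, macrophages and other non-hepatocyte cells add the surface proteins and activators that start, restrain or reverse the chain. By usual source, 21 of the members are made mainly by hepatocytes and 10 by other cells.

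The study asked how injected recombinant human cytoglobin (rhCYGB) changes gene expression in injured liver. All 6 mice were wild-type C57BL/6 animals fed a diet with 0.1% DDC, a compound that injures bile ducts and causes scarring, for 4 weeks, so no group without injury enters the comparison. In the last 2 of these weeks 3 mice were injected 2 times a week with rhCYGB at 2 mg/kg and 3 with its saline vehicle, and liver RNA was taken 2 days after the final dose. Each animal has a number of its own in the labels, so replicates are different mice, and their numbering here (1 to 3, by deposition order) pairs no animals across groups. Since rhCYGB was given as protein, it brings in no transcript. Values below are given for replicates 1, 2 and 3 of a group in that order, and ± is the SD over n = 3 mice.

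Each library held between 58422095 and 72431373 estimated counts. The libraries did not separate by group. On the first principal component of log2 CPM, which held 67.6% of the variance, rhCYGB replicate 1 lay at -52.7 among the vehicle libraries (-81.3 to -24.5), and rhCYGB replicates 2 and 3 lay apart at 61.6 and 129.8. The deviation in log2 CPM per doubling of transcript length differed too. It was 0.40, -0.02 and 0.06 in vehicle mice and 0.24, -0.35 and -0.33 in rhCYGB mice. Genes with a count numbered 16290, 16040 and 15992 in vehicle mice and 16060, 15542 and 14933 in rhCYGB mice. The part of these differences in the split was not tested. As no transcript marks the treatment, whether the label of rhCYGB replicate 1 is right cannot be settled here. Every rhCYGB group value includes that library, and values without it rest on 2 rhCYGB mice. TMM scaling factors, which correct for RNA make-up, ran from 1.07 to 1.45 in vehicle mice and were 1.18, 0.744 and 0.630 in rhCYGB mice. CPM here is the estimated count scaled to the TMM-adjusted library total, and TPM is the length-scaled level, a share of all transcripts in one library with no scaling between libraries. Results are therefore given with all 6 libraries and again without rhCYGB replicate 1, and directions are given on both scales where they differ. Alb, which marks hepatocytes, was between 46060 and 141500 CPM in every library.

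With all 6 libraries, 0 of the 31 members passed an adjusted p of 0.05 in edgeR's quasi-likelihood test, against 0.0% of the 14415 genes tested, and the smallest adjusted p of a member was 0.523. The fitted log2 fold change of rhCYGB over vehicle was above 0 in 19 members and below 0 in 12, beside 46.8% of all genes above 0. Its median was 0.24 over the members and -0.06 over all genes. At an unadjusted p under 0.05, 1 member was higher (Hrg; 6.06% of all genes) and 2 were lower (F13a1 and Plau; 2.06% of all genes). DESeq2 gave an adjusted p to only 1558 genes, 19 of the members among them. It called 1 of these members, Hrg, beside 4.17% of the 1558 genes. The 12 members without one, which include F13a1, Plau and Plat, could not be called by it.

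Under TMM scaling, direction went with the usual source of the protein. All 21 hepatocyte members also had a higher mean TPM than all 10 others, so source and level cannot be told apart here. Of the 21 members made by hepatocytes, 18 had a higher fitted value with rhCYGB, with a median log2 fold change of 0.45, while 9 of the 10 made by other cells had a lower one, with a median of -0.57. On log2(TPM + 1), where all genes had a median of -0.51, 15 of the hepatocyte members and all 10 others were below 0. In bulk liver, fewer cells of a type and less RNA per cell cannot be told apart. Of the cell type marker lists, some lay the same way: all 6 hepatocyte markers had higher fitted values (median 0.71), and all 5 vascular endothelial markers (-0.68), all 6 monocyte and macrophage markers (-0.59) and 5 of 6 stellate cell markers (-0.76) had lower ones. Others did not or were mixed: 4 of 5 Kupffer cell markers (0.09) and 2 of 3 mesothelium markers (0.12) were higher, and lower were 3 of 5 bile duct (-0.64), 3 of 6 sinusoidal endothelial (-0.07), 2 of 4 platelet (-0.11), 2 of 3 neutrophil (-0.08) and 1 of 2 lymphocyte markers, whose median was 0.08. The part of these markers in the members' values was not tested.

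The pattern came mainly from rhCYGB replicates 2 and 3. In CPM, rhCYGB replicate 1 lay within the vehicle range for 18 of the 31 members, whereas replicate 2 lay outside it for 25 and replicate 3 for 26. Replicate 3 was the highest of all libraries for 15 members, all made by hepatocytes, and the lowest for 11, of which 8 are made by other cells. Vehicle replicate 1 was the lowest library for 17 members, all made by hepatocytes. The same counts over all genes were not made, so none of these is a trait of the members. The first principal component of all tested genes also set rhCYGB replicates 2 and 3 apart. The heat map of deviations by library shows these blocks.

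**Figure D1:**
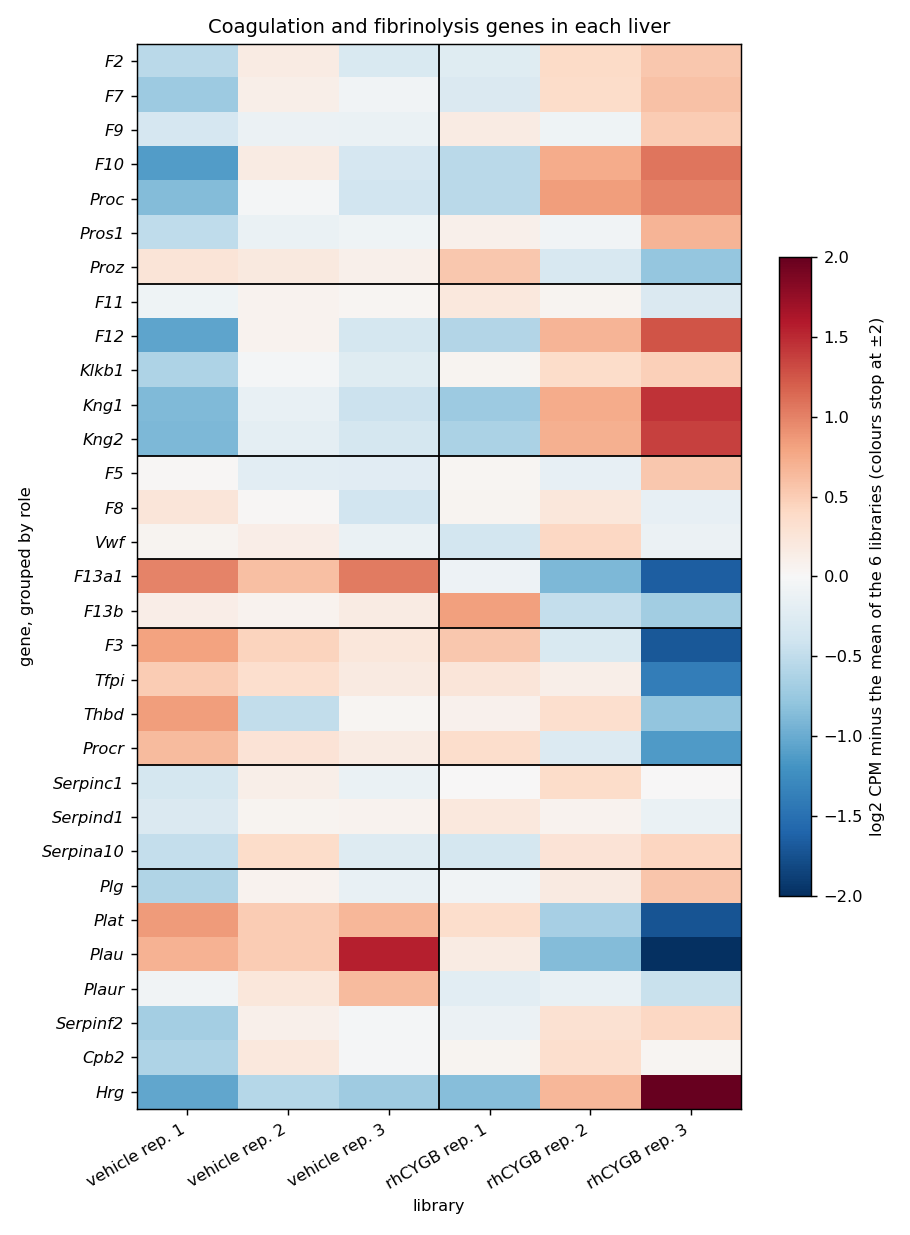
Each row is a member, each column a library, and colour is log2 CPM minus that gene's mean over the 6 libraries, with horizontal lines between role groups. Warm colours gather in rhCYGB replicates 2 and 3 for Kng1, Kng2, F12, Proc, F10 and Hrg, cold ones in the same libraries for F13a1, Plat, Plau and F3, and rhCYGB replicate 1 lies within the vehicle range for 18 of the 31 members. The share of all genes within that range was not counted.

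Without rhCYGB replicate 1, 9 members passed the threshold in edgeR. That library was singled out because its values lay with the vehicle libraries, and leaving it out keeps the rhCYGB mice furthest from vehicle. Adjusted p-values without it, here and below, are therefore descriptive and do not hold as a test. Called higher were 5 members (Hrg, Kng1, Kng2, F12 and Proc), beside 12.7% of all genes, and called lower were 4 (F13a1, Plau, Plat and F13b), beside 10.5% of all genes, so the members' shares are near the background. Leaving out any other single library gave 0 calls among the members. Groups in CPM did not overlap in 7 members: all 3 rhCYGB libraries were above all vehicle libraries for 3 (F9, Pros1 and Klkb1; 6.02% of all genes) and below them for 4 (F13a1, Plat, Plau and Plaur; 7.38% of all genes). In TPM, 0 members were above without overlap (1.33% of all genes) and 4 were below (Vwf, F13a1, Plau and Plaur; 12.7% of all genes). Fold changes leaned on rhCYGB replicate 3 as well: without it 17 members had a value smaller by more than 1.5 times, 2 a larger one and 3 the opposite sign.

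**Figure D2:**
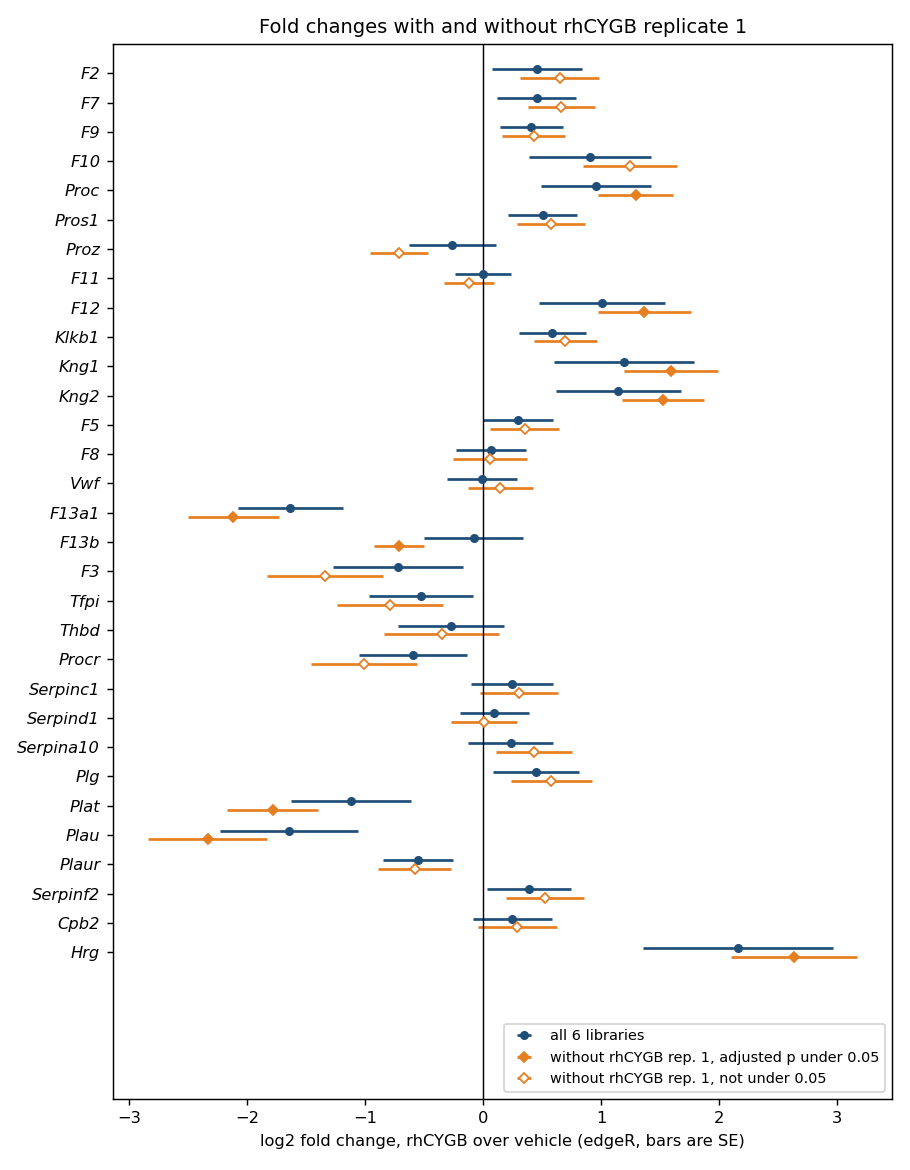
Horizontal position is the log2 fold change of rhCYGB over vehicle from edgeR with its SE, for each member in role order. Blue points use all 6 libraries and none has an adjusted p under 0.05. Orange diamonds leave out rhCYGB replicate 1, and the 9 filled ones have an adjusted p under 0.05. That library was singled out by its values in these data, so the filled symbols are descriptive.

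Hrg encodes histidine-rich glycoprotein, a plasma protein that binds plasminogen, fibrinogen and heparin. It lay at 513, 712 and 643 CPM in vehicle mice and 587, 1671 and 6102 CPM in rhCYGB mice. The vehicle libraries and rhCYGB replicate 1 were level with one another, replicate 2 was above them and replicate 3 far above, so the groups overlap. The log2 fold change was 2.16 (SE 0.81) with an edgeR adjusted p of 0.523, 2.64 without rhCYGB replicate 1 (edgeR adjusted p = 0.0221), and 0.86 without rhCYGB replicate 3. DESeq2 gave 2.20 with an adjusted p of 0.0449. As a share of the summed TPM of all members, a measure that needs no scaling between libraries, Hrg held 6.57%, 5.74% and 6.24% in vehicle mice and 5.92%, 9.26% and 22.3% in rhCYGB mice.

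Kng1 and Kng2 encode kininogens, the precursors from which kallikrein releases bradykinin and, in their long form, the plasma carriers of prekallikrein. Kng1 had the highest level of all members per length, at a mean of 3421 TPM over the 6 libraries. In CPM Kng1 lay at 2125, 3563 and 2926 CPM in vehicle mice and 2378, 6607 and 10730 CPM in rhCYGB mice. Replicate 1 of the rhCYGB group lay inside the vehicle range and replicates 2 and 3 above all vehicle libraries. Kng2 lay at 304, 494 and 439.8 CPM in vehicle mice and 362, 928 and 1450 CPM in rhCYGB mice, in the same order of libraries. Log2 fold changes were 1.20 (SE 0.59) for Kng1 and 1.15 (SE 0.53) for Kng2, each with an edgeR adjusted p of 0.523. Without rhCYGB replicate 1 edgeR gave 1.59 for Kng1 (adjusted p = 0.0321) and 1.52 for Kng2 (adjusted p = 0.0263). Without rhCYGB replicate 3 the values were 0.65 and 0.65. The TPM ratio of Kng1 to Kng2 was 5.74 ± 0.24 in vehicle mice and 5.81 ± 0.36 in rhCYGB mice, and lay between 5.42 and 6.13 in all 6 libraries. The annotated transcripts share 4.93% of the 100-base windows of Kng1 and 5.29% of those of Kng2, so a small part of their reads could be divided between the pair.

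Together Hrg, Kng1 and Kng2 held 34.8%, 35.5% and 36.0% of the members' summed TPM in vehicle mice and 31%, 47.3% and 63.0% in rhCYGB mice. The summed level of the 31 members stayed between 1.12% and 1.45% of all TPM, so the make-up of the pool differed more than its size. The share of Serpinc1 went the other way, at 16.6%, 14.5% and 14.6% in vehicle mice and 16.7%, 11.8% and 6.07% in rhCYGB mice. A share also falls when other members of the pool rise. The log2 fold change of Serpinc1 was 0.24 (SE 0.35) under TMM scaling and -0.49 on log2(TPM + 1). The shares of Hrg, Kng1 and Kng2 were each above the vehicle range in rhCYGB replicates 2 and 3, and replicate 1 was within it for Hrg and below it for Kng1 and Kng2. The bars of pool shares show this shift.

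**Figure D3:**
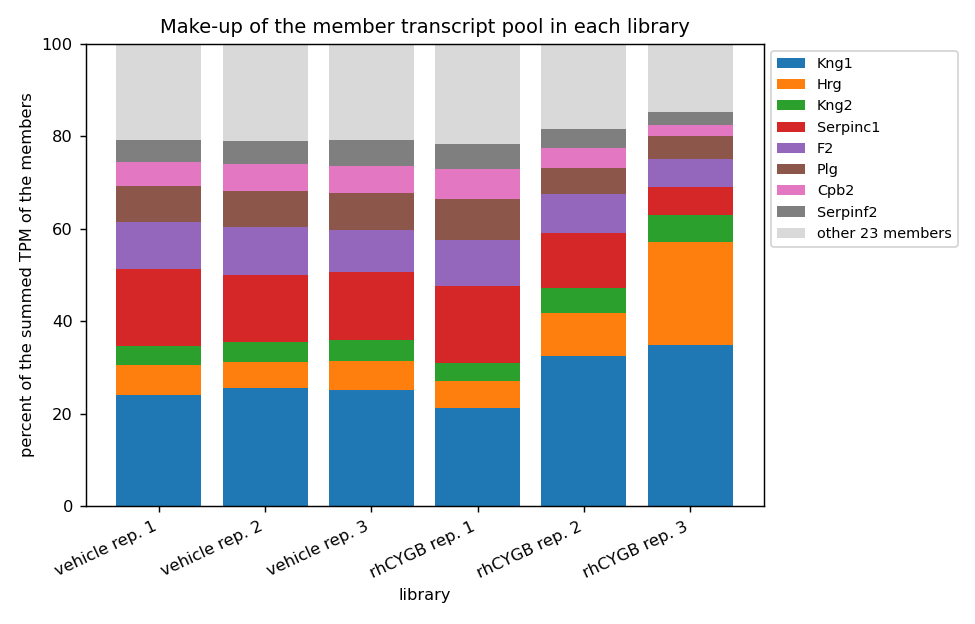
Each bar is a library and its height is 100% of the summed TPM of the 31 members, divided among the 8 members with the highest mean TPM shown and the other 23 together. Kng1, Hrg and Kng2 at the base make up 31% to 36.0% in the vehicle libraries and rhCYGB replicate 1, 47.3% in replicate 2 and 63.0% in replicate 3.

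Hrg, Kng2 and Kng1 lie next to one another on chromosome 16 (mm10, 22951072 to 23082078). To show what letters lie before genes with unlike values, promoter stretches are printed for Hrg and Kng2, which were high in rhCYGB replicates 2 and 3, for F13b and Proz, which were low there, and for F11, which was lowest in rhCYGB replicate 3. All 5 hold a match to a searched motif. They come from the RefSeq promoter table (GRCm38.p6, the same build), 5′ to 3′ on the gene's own strand, from 245 to 6 bases before the annotated start, with no annotated exon inside. Capitals mark a match to a searched motif. The stretches are chr16:22950827-22951066 (+) for Hrg, chr16:23029107-23029346 (-) for Kng2, chr8:45262037-45262276 (-) for F11, chr1:139501462-139501701 (+) for F13b and chr8:13060663-13060902 (+) for Proz.
Hrg: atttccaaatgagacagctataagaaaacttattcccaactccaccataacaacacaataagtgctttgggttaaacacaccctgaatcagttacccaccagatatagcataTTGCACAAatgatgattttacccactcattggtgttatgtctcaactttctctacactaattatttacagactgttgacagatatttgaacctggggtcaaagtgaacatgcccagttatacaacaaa
Kng2: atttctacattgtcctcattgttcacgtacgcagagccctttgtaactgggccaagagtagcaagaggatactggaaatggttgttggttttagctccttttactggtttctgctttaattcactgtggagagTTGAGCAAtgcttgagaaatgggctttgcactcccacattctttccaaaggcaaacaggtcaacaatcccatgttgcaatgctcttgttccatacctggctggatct
F11: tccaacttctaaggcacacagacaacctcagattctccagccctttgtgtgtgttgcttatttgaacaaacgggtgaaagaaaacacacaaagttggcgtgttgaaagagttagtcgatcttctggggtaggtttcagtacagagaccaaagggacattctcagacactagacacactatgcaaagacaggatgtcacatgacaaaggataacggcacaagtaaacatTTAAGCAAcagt
F13b: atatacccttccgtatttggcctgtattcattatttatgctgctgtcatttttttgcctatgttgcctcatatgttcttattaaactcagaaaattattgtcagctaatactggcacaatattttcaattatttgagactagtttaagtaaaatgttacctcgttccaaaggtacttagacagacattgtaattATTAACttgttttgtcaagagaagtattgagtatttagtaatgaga
Proz: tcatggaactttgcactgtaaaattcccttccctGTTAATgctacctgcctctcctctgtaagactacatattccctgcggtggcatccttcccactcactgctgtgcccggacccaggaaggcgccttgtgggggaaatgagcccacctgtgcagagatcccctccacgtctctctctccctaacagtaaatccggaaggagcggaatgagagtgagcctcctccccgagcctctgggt
In Hrg, Kng2 and F11 the capitals are the C/EBP-type motif TTGCNNAA, starting 133, 112 and 17 bases before the start. In F13b and Proz they are the HNF1-type motif GTTAAT, starting 51 and 211 bases before the start. The matches in Kng2, F11 and F13b are on the opposite strand, so the capitals there show the reverse complement.

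The motifs were searched on both strands in the 250 bases before each start, for 25 promoters of 23 members matched by symbol and for all 32851 promoters of the table. TTGCNNAA was in 7 member promoters, 28.0% against 9.56% of all promoters, and the members were F9, F11, Klkb1, Kng2, Hrg, Plaur and Procr. GTTAAT was in 2, 8.0% against 6.43% of all, and CAAAGTCCA, an HNF4A-type motif, was in 0, against 0.384% of all. A string this rare would be missing from most sets of 25 promoters, so the 0 says nothing about HNF4A sites in the members. The motifs do not overlap one another in the printed stretches. A match describes letters in this window and not a bound site, and members with TTGCNNAA had values in both directions. F10 and F12, which were also high in rhCYGB replicates 2 and 3, held none of the 3 motifs.

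The vitamin K-dependent members are proteases and cofactors whose glutamate residues are carboxylated so that they bind membranes. Of the 7, 6 had a higher fitted value with rhCYGB, with a median log2 fold change of 0.46. Proc encodes protein C, which inactivates the cofactors V and VIII, and lay at 203, 358 and 284 CPM in vehicle mice and 252, 654 and 732 CPM in rhCYGB mice. Its log2 fold change was 0.96 (SE 0.47) with all libraries and 1.295 without rhCYGB replicate 1 (edgeR adjusted p = 0.0309). F10, the protease that converts prothrombin to thrombin, lay at 243, 589.6 and 416 CPM in vehicle mice and 363, 876 and 1100 CPM in rhCYGB mice. For both genes rhCYGB replicates 2 and 3 were above all vehicle libraries and replicate 1 was among them. The log2 fold change of F10 was 0.91 (SE 0.52), and 1.24 without rhCYGB replicate 1 (edgeR adjusted p = 0.0584), but 0.58 without replicate 3.

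F9, the protease that acts with factor VIII, lay at 117, 135 and 134 CPM in vehicle mice and 164, 138 and 209 CPM in rhCYGB mice. Pros1 encodes protein S, the cofactor of protein C, and lay at 63.8, 83.0 and 85.2 CPM in vehicle mice and 97.3, 86.4 and 145 CPM in rhCYGB mice. In both, all rhCYGB libraries were above all vehicle libraries in CPM, by margins that were small in rhCYGB replicate 2, and in TPM the groups overlapped. Log2 fold changes were 0.41 (SE 0.27) for F9 and 0.50 (SE 0.29) for Pros1, and limma on log2(TPM + 1) gave -0.35 and -0.26, so the direction depends on the scaling. Without rhCYGB replicate 3 edgeR gave 0.23 and 0.24. F2, which encodes prothrombin, was 1179 ± 302 CPM in vehicle mice and 1620 ± 423 in rhCYGB mice. F7, the protease that tissue factor activates, was 60.6 ± 17.2 CPM in vehicle mice and 83.0 ± 24.1 in rhCYGB mice. Their log2 fold changes were 0.46 (SE 0.38) and 0.45 (SE 0.34), with overlapping groups, and both were -0.29 on log2(TPM + 1). Without rhCYGB replicate 3 they were 0.30 and 0.26.

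Proz encodes protein Z, the cofactor with which the serpin of Serpina10 inhibits factor X. It lay at 157, 150.2 and 141 CPM in vehicle mice and 191, 106 and 77.3 CPM in rhCYGB mice. Here rhCYGB replicate 1 was the highest library and replicates 2 and 3 the lowest, so the group mean hides opposite values: the log2 fold change was -0.26 (SE 0.37), and -0.71 without rhCYGB replicate 1 (edgeR adjusted p = 0.0721) and -0.017 without replicate 3. F7, F10 and Proz are neighbours on chromosome 8 (13026034 to 13075006). The TPM ratio of Proz to F10, chosen after their values were seen, was 0.722, 0.285 and 0.380 in vehicle mice and 0.591, 0.135 and 0.0781 in rhCYGB mice. Adjacent genes of this locus thus lay in CPM on opposite sides of the vehicle range in rhCYGB replicates 2 and 3.

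In the contact system, which starts clotting on negatively charged surfaces, 4 of 5 members had a higher fitted value, with a median log2 fold change of 1.01. F12, the protease that starts it, lay at 263, 572 and 429.5 CPM in vehicle mice and 363, 872 and 1308 CPM in rhCYGB mice. Replicates 2 and 3 of the rhCYGB group were above all vehicle libraries and replicate 1 was within them. The log2 fold change of F12 was 1.01 (SE 0.53), and 1.37 without rhCYGB replicate 1 (edgeR adjusted p = 0.0442), but 0.55 without replicate 3. Klkb1, which encodes plasma prekallikrein, lay at 123, 182 and 159.5 CPM in vehicle mice and 195, 242 and 261 CPM in rhCYGB mice. All rhCYGB libraries were above the vehicle libraries, with a log2 fold change of 0.59 (SE 0.29, edgeR adjusted p = 0.523) and of 0.93 with each library's length trend removed, but limma on log2(TPM + 1) gave -0.14. In GENCODE M21 the predicted gene Gm45753 overlaps Klkb1 on the same strand and shares 42.1% of its 100-base windows. Whether Gm45753 was in the annotation used for the deposited counts was not checked, so it is unknown whether reads at Klkb1 were divided with it.

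F11, which activates factor IX, lay at 40.3, 44.8 and 43.9 CPM in vehicle mice and 49.6, 44.4 and 34.7 CPM in rhCYGB mice, a log2 fold change of -0.0016 with an SE of 0.24. Its libraries were close together except rhCYGB replicate 3, the lowest, and rhCYGB replicate 1, the highest. F11 is next to Klkb1 on chromosome 8, and the TPM ratio of F11 to Klkb1 was 0.761, 0.571 and 0.640 in vehicle mice and 0.591, 0.426 and 0.310 in rhCYGB mice. The ratio was lowest in rhCYGB replicates 2 and 3, and replicate 1 lay within the vehicle values.

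**Figure D4:**
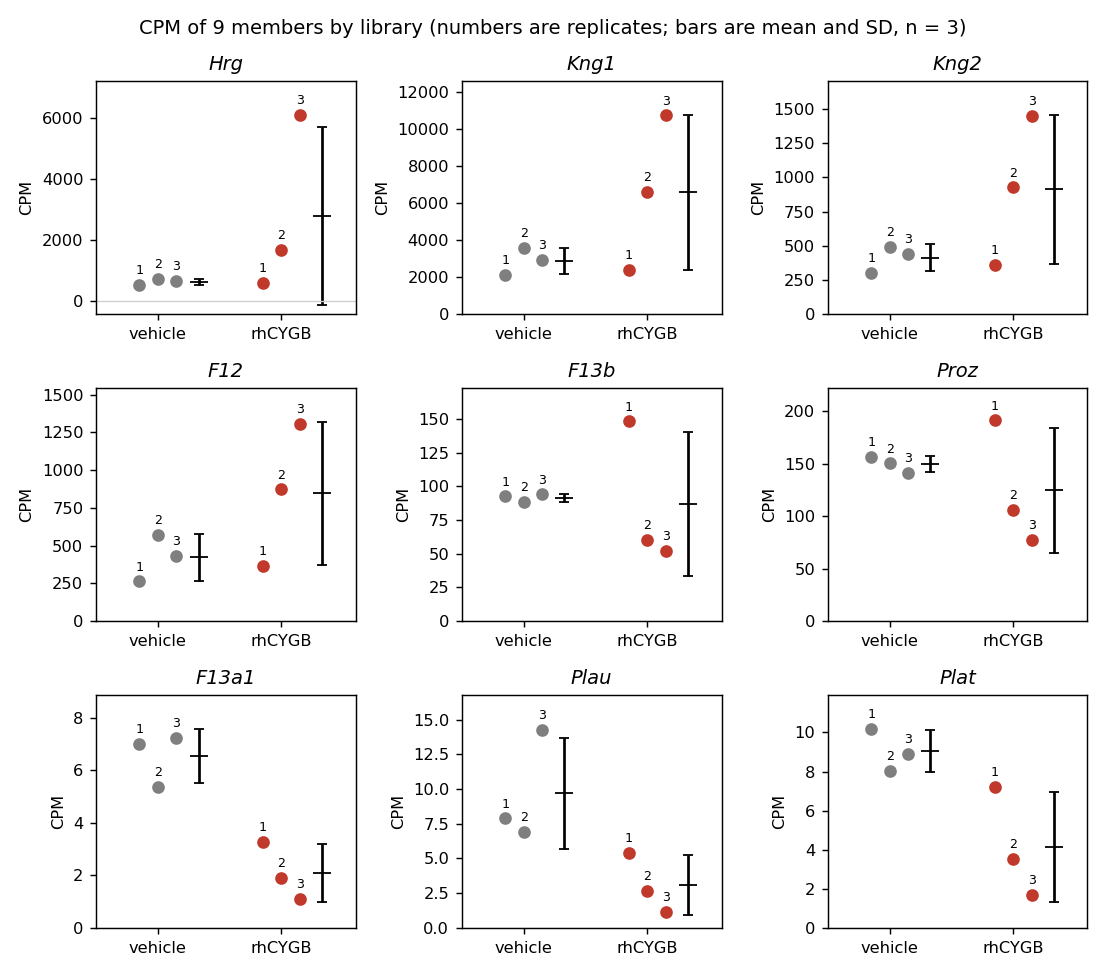
Each panel plots CPM of a member on a linear axis, grey points for vehicle and red for rhCYGB, numbered by replicate, with the mean and SD (n = 3) as black bars. Hrg, Kng1, Kng2 and F12 are high in rhCYGB replicates 2 and 3, F13b and Proz are high in replicate 1 and low in replicates 2 and 3, and F13a1, Plau and Plat lie below all vehicle libraries in every rhCYGB library.

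Factor XIII, which crosslinks fibrin, is made of an A subunit with the catalytic site, from macrophages and platelet precursors, and a B subunit that carries it in plasma, from hepatocytes. F13a1, the A subunit gene, lay at 7.004, 5.36 and 7.24 CPM in vehicle mice and 3.28, 1.89 and 1.12 CPM in rhCYGB mice. All 3 rhCYGB libraries were below all vehicle libraries, replicate 1 included, and the same held in TPM. The log2 fold change was -1.63 (SE 0.44, edgeR adjusted p = 0.523), and -2.12 without rhCYGB replicate 1 (edgeR adjusted p = 0.0212). F13b, the B subunit gene, lay at 92.5, 88.3 and 94.0 CPM in vehicle mice and 148, 60.3 and 51.8 CPM in rhCYGB mice. The vehicle libraries lay close together, rhCYGB replicate 1 was above them and replicates 2 and 3 below. Its log2 fold change was -0.08 (SE 0.42) with all libraries and -0.71 without rhCYGB replicate 1 (edgeR adjusted p = 0.0488).

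The TPM ratio of F13a1 to F13b was 0.0464, 0.0372 and 0.0472 in vehicle mice and 0.0136, 0.0192 and 0.0131 in rhCYGB mice. This ratio needs no scaling and separated the groups, rhCYGB replicate 1 included. Counts of F13a1 were 378 to 592 in vehicle mice and 42 to 252 in rhCYGB mice. Among platelet and megakaryocyte markers, 4 of 6 were tested, 2 had higher and 2 lower fitted values, and their summed CPM was 13.4 to 23.1 in vehicle mice and 13.2 to 23.5 in rhCYGB mice. Gp1ba and Gp9 were at 0 in some libraries. Summed monocyte and macrophage markers were 791 to 1577 CPM in vehicle mice and 664 to 1294 in rhCYGB mice, and none of that list was at 0. Most of this sum was Lyz2, at 562 to 1356 CPM. Of the 6 markers, 3 lay below all vehicle libraries in every rhCYGB library (7.38% of all genes), as F13a1 did: Ccr2, Itgam and Ly6c2. Ccr2 was at 19.4, 16.1 and 12.6 CPM in vehicle mice and 7.40, 5.77 and 1.70 CPM in rhCYGB mice. The groups overlapped for the other 3, Lyz2, Adgre1 and Cd68. Adgre1 was at 44.1, 37.7 and 53.0 CPM in vehicle mice and 39.9, 35.6 and 21.1 CPM in rhCYGB mice. Cd68 was at 53.9, 103 and 141 CPM in vehicle mice and 45.6, 116 and 94.0 CPM in rhCYGB mice. The part of these cells in the F13a1 values was not tested.

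Of the large cofactors and their carrier, F5, the cofactor of factor X from hepatocytes, was 219 ± 21.8 CPM in vehicle mice and 269 ± 69.0 in rhCYGB mice. F8, the cofactor of factor IX, which endothelial cells make, was 6.00 ± 1.27 CPM in vehicle mice and 6.30 ± 0.832 in rhCYGB mice. Vwf, the carrier of factor VIII and the tether for platelets, was 8.52 ± 0.791 CPM in vehicle mice and 8.46 ± 2.44 in rhCYGB mice. Their log2 fold changes were 0.30 (SE 0.30), 0.07 (SE 0.29) and -0.01 (SE 0.30), and the groups overlapped in CPM in all 3 genes. These are the longest members, at 7433, 7369 and 8834 bases. Libraries also differed by transcript length: the deviation in log2 CPM per doubling of length was 0.40, -0.02 and 0.06 in vehicle mice and 0.24, -0.35 and -0.33 in rhCYGB mice. With each library's length trend removed, the log2 fold changes became 0.75 for F5, 0.51 for F8 and 0.50 for Vwf. Without rhCYGB replicate 3 they were 0.068, 0.16 and 0.053.

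The members at the start of clotting and on the vessel wall were all low and all had lower fitted values, with a median log2 fold change of -0.56. F3 encodes tissue factor, the trigger of clotting, and lay at 4.48, 3.49 and 3.01 CPM in vehicle mice and 3.74, 2.08 and 0.797 CPM in rhCYGB mice. Tfpi, the inhibitor of tissue factor, lay at 8.25, 7.25 and 6.57 CPM in vehicle mice and 6.80, 6.29 and 2.21 CPM in rhCYGB mice. In both, rhCYGB replicate 3 was the lowest library by far and replicate 1 was within the vehicle range. Procr, the receptor that presents protein C, was 2.11 ± 0.368 CPM in vehicle mice and 1.39 ± 0.672 in rhCYGB mice. Thbd encodes thrombomodulin, which turns thrombin into the activator of protein C, and was 7.26 ± 3.40 CPM in vehicle mice and 6.00 ± 2.17 in rhCYGB mice. Log2 fold changes were -0.72 (SE 0.55) for F3, -0.53 (SE 0.44) for Tfpi, -0.59 (SE 0.46) for Procr and -0.27 (SE 0.45) for Thbd, all with overlapping groups. Without rhCYGB replicate 3 they were -0.34, -0.17, -0.30 and -0.013, and removal of the length trend left -0.025 for Thbd.

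The vascular endothelial markers were likewise lowest in rhCYGB replicate 3, with summed CPM of 97.1, 64.6 and 54.8 in vehicle mice and 85.7, 46.9 and 22.3 in rhCYGB mice, and none of the 5 was at 0. Of the sinusoidal endothelial markers 3 of 6 had a higher fitted value, the median log2 fold change was -0.07, and their summed CPM was 158 to 201 in vehicle mice and 143 to 196 in rhCYGB mice. Their part in the values of F3, Tfpi, Procr and Thbd was not tested. Counts in this group were as low as 28 (Procr in rhCYGB replicate 3), so single libraries carry more counting error here than for the hepatocyte genes.

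The serpins that inhibit clotting proteases had small fitted differences in CPM. Serpinc1 encodes antithrombin, the main inhibitor of thrombin and factor X, and lay at 1615, 2239 and 1872 CPM in vehicle mice and 2063, 2657 and 2064 CPM in rhCYGB mice. Serpind1, the heparin cofactor II gene, was 442 ± 59.3 CPM in vehicle mice and 472 ± 56.4 in rhCYGB mice. Serpina10, the partner of protein Z, was 257 ± 81.3 CPM in vehicle mice and 302 ± 80.4 in rhCYGB mice. Log2 fold changes were 0.24 (SE 0.35), 0.10 (SE 0.29) and 0.24 (SE 0.36), with overlapping groups in all 3. On log2(TPM + 1) they were -0.49, -0.64 and -0.50. Removal of the length trend gave 0.055 for Serpind1 and 0.0098 for Serpina10, and without rhCYGB replicate 3 they were 0.18 and 0.073. The TPM ratio of F2 to Serpinc1, a protease and its inhibitor, was 0.612, 0.719 and 0.622 in vehicle mice and 0.591, 0.703 and 1.01 in rhCYGB mice, so only rhCYGB replicate 3 lay above the vehicle libraries.

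In fibrinolysis, the activators and the urokinase receptor had lower fitted values, and the 4 hepatocyte genes higher ones under TMM scaling. Plau encodes urokinase, which activates plasminogen at the cell surface, and lay at 7.88, 6.91 and 14.3 CPM in vehicle mice and 5.42, 2.65 and 1.17 CPM in rhCYGB mice. Plat encodes tissue plasminogen activator and lay at 10.2, 8.02 and 8.92 CPM in vehicle mice and 7.21, 3.54 and 1.70 CPM in rhCYGB mice. Plaur, the urokinase receptor, lay at 6.72, 8.23 and 10.99 CPM in vehicle mice and 6.11, 6.38 and 5.21 CPM in rhCYGB mice. In all 3 genes every rhCYGB library was below every vehicle library in CPM, although for Plaur the margin was small, and for Plat the groups overlapped in TPM. Log2 fold changes were -1.64 (SE 0.58) for Plau, -1.12 (SE 0.51) for Plat and -0.55 (SE 0.29) for Plaur, each with an edgeR adjusted p of 0.523. Without rhCYGB replicate 1 they were -2.33 (edgeR adjusted p = 0.0239), -1.78 (adjusted p = 0.0244) and -0.58 (adjusted p = 0.194).

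The TPM ratio of Plau to Plaur was 0.755, 0.541 and 0.834 in vehicle mice and 0.571, 0.267 and 0.145 in rhCYGB mice, lowest in rhCYGB replicates 2 and 3. Summed stellate cell markers were 697 to 904 CPM in vehicle mice and 573, 498 and 162 CPM in rhCYGB mice. Summed bile duct markers were 948 to 1052 CPM in vehicle mice and 588, 373 and 195 CPM in rhCYGB mice, most of it Spp1, which was 892 to 975 CPM in vehicle mice and 542, 299 and 113 CPM in rhCYGB mice. The bile duct keratins lay the other way in rhCYGB replicates 2 and 3: Krt19 was 19.1 to 22.4 CPM in vehicle mice and 13.4, 39.5 and 42.3 CPM in rhCYGB mice, and Krt7 was 10.1 to 15.9 CPM in vehicle mice and 8.94, 18.2 and 22.4 CPM in rhCYGB mice. No marker of either list was at 0. Their part in the values of Plau, Plat and Plaur was not tested. Plg, the precursor of plasmin, was 1276 ± 290.2 CPM in vehicle mice and 1743 ± 387 in rhCYGB mice, Serpinf2, the plasmin inhibitor, was 667 ± 178 CPM in vehicle mice and 872 ± 161 in rhCYGB mice, and Cpb2, a carboxypeptidase that protects fibrin, was 483 ± 134 CPM in vehicle mice and 574 ± 69.5 in rhCYGB mice. Log2 fold changes were 0.45 (SE 0.37), 0.39 (SE 0.36) and 0.25 (SE 0.34), with overlapping groups. Plg was at 0.26 without rhCYGB replicate 3, and Cpb2 at 0.017 with the length trend removed.

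Ratios to Alb within each library put most hepatocyte members lower with rhCYGB. The mean log2 TPM ratio to Alb was lower in 17 of the 21 hepatocyte members and in all 10 others, and higher only in F12, Kng1, Kng2 and Hrg. The groups did not overlap in 11 members, all lower with rhCYGB (24.2% of all genes): F2, F7, Plg, Serpinf2, Serpina10, Vwf, Tfpi, F13a1, Plat, Plau and Plaur. No member was higher without overlap, beside 0.486% of all genes. For Plg the log2 ratio was -6.00, -6.06 and -6.09 in vehicle mice and -6.10, -6.83 and -6.44 in rhCYGB mice. Plg in rhCYGB replicate 1 was thus only just outside the vehicle range. A ratio to Alb shows unequal change and not which of the 2 genes differed. Alb itself had a log2 fold change of 0.89 (SE 0.52) under TMM scaling, above the median of 0.45 of the hepatocyte members. In TPM it was 62770, 66073 and 65756 in vehicle mice and 75256, 73665 and 62647 in rhCYGB mice.

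The way libraries are put on one scale decides the direction of many members. Under TMM scaling 19 members had a positive log2 fold change, under upper-quartile scaling 17, and on log2(TPM + 1) 6. The median of all genes moved too, from -0.06 under TMM to -0.18 under upper-quartile scaling and -0.51 on log2(TPM + 1), where the members' median was -0.46. The 6 members above 0 on every one of these scales were F10, Proc, F12, Kng1, Kng2 and Hrg. All 6 were smaller on log2(TPM + 1) than under TMM. There F10 was at 0.11 (SE 0.24), Proc at 0.11 (SE 0.21) and F12 at 0.15 (SE 0.25). Kng1 was at 0.24 (SE 0.26), Kng2 at 0.22 (SE 0.25) and Hrg at 0.81 (SE 0.51). F13a1, F3, Tfpi, Procr, Thbd, Plat, Plau, Plaur, Proz, F13b, F11 and Vwf were below 0 on all 3, although F11 and Vwf were above 0 with DESeq2 size factors and Vwf also with the length trend removed. The plot of fold changes under 4 scalings shows the other 13 members on both sides of 0.

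**Figure D5:**
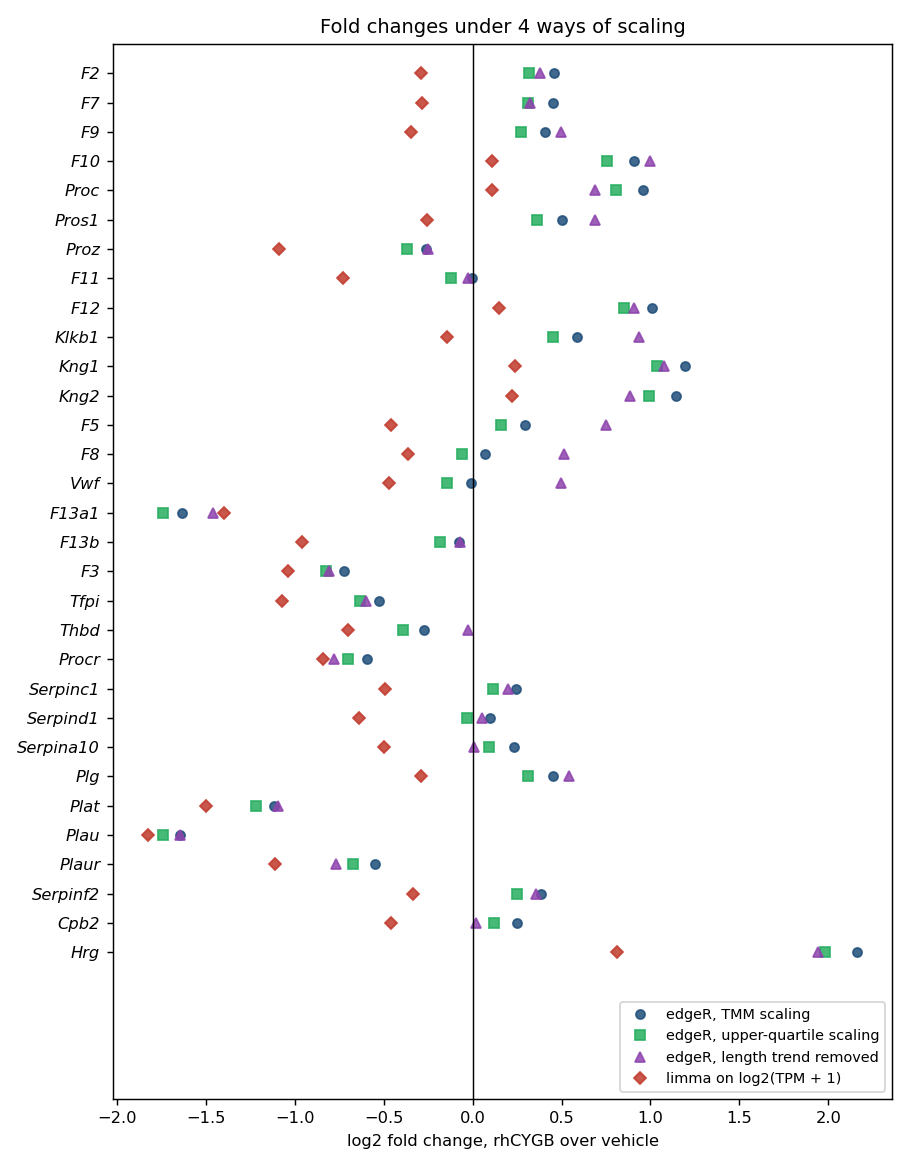
Horizontal position is the log2 fold change of rhCYGB over vehicle for each member, under TMM scaling (circles), upper-quartile scaling (squares), removal of each library's length trend (triangles) and limma on log2(TPM + 1) (diamonds). Diamonds lie to the left of circles for all members except F13a1, and 6 members have all 4 symbols to the right of 0.

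Spread among mice was wider with rhCYGB. The median CV of the members in CPM was 20.6% in vehicle mice and 29.1% in rhCYGB mice, and the CV was larger in rhCYGB mice in 21 of the 31 members, beside 80.0% of all genes tested. F13b had a CV of 3.21% in vehicle mice and 61.5% in rhCYGB mice. Hrg had the largest CV with rhCYGB, at 104.9%. Levels per length spanned from 3421 TPM for Kng1 through 1654 for Serpinc1, 1214 for Hrg and 1119 for F2 to 1.51 for F8, as means over 6 libraries. All 21 hepatocyte members were above all 10 others in this order. Neighbours in it, such as Hrg and F2, overlapped across libraries.

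The transcript table held 47 transcripts of the members, 10 members had more than 1, and 45 transcripts were tested. None passed the threshold in edgeR with all libraries, beside 0.0% of the 19664 transcripts tested, and 1 of the 45, that of F13a1, was lower at an unadjusted p under 0.05, beside 1.19% of all transcripts, and 0 were higher, beside 2.85%. The smallest adjusted p of a member transcript was 0.802. Without rhCYGB replicate 1, 2 passed, beside 4.69% of transcripts. The first was the 2621-base transcript of F9, at 298, 220 and 406 estimated counts in vehicle mice and 472, 1 and 1 in rhCYGB mice (edgeR adjusted p = 0.0178). The main F9 transcript of 2735 bases held 95.5% or more of F9 in every library, and the minor form was at 1 count each in rhCYGB replicates 2 and 3. The second was the 1585-base transcript of Proc, higher with an adjusted p of 0.0427 in edgeR, which held 25.1% to 28.1% of Proc in vehicle mice and 27.8%, 32.6% and 31.2% in rhCYGB mice. Its 1581-base transcript held 57.9% to 65.5%.

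Other members kept a dominant transcript in most libraries. The 1945-base transcript held 85.8% to 92.4% of Kng1 and the 2299-base one 3.94% to 9.13%, while for Kng2 the 1612-base transcript held 95.8% to 97.5% and the 1686-base one 2.09% to 2.75%. The 2693-base transcript of F10 held 92.8% to 99.0% in 5 libraries and 85.6% in rhCYGB replicate 3, where the 2503-base one held 14.4%. The 7509-base transcript of F8 held 69.6% in vehicle replicate 1 and 12.4% to 40.7% elsewhere, with the 7293-base one at 28.3% there. For Serpind1 the 2190-base transcript held 54.6% to 69.9% and the 2063-base one the rest, for Serpina10 the 1609-base one held 93.5% to 95.8% and the 1447-base one the rest, and for Tfpi the 1492-base one held 54.0% to 78.1% and the 3027-base one 5.80% to 31.5%. These shares rest on the assembler's division of reads among similar transcripts, and F8 and Tfpi have few counts.

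Among 55 other genes of the pathway that are not members, 49 were tested, 26 had a higher and 23 a lower fitted value, the median log2 fold change was 0.08, and 0 passed the threshold in edgeR (smallest adjusted p 0.523). At an unadjusted p under 0.05 in edgeR, 2 of the 49 were higher (6.06% of all genes) and 4 lower (2.06% of all genes). DESeq2 called 0 of the 22 it gave an adjusted p to, beside 4.17% of all genes it gave one to. All 3 fibrinogen genes had higher fitted values, with a median of 0.53. Fgb, which encodes the beta chain, was 4132 ± 1295 CPM in vehicle mice and 5967 ± 2840 in rhCYGB mice, and Fgg, the gamma chain gene, was 3638 ± 1144 CPM in vehicle mice and 5261 ± 2491 in rhCYGB mice. These groups overlapped, with the highest values in rhCYGB replicate 3. Of 12 tested inhibitors and protease traps 5 were higher and 7 lower. Pzp, an alpha-2-macroglobulin relative, was 3494 ± 800 CPM in vehicle mice and 3695 ± 671 in rhCYGB mice, and its relative Mug1 was 1087 ± 82.7 CPM in vehicle mice and 1507 ± 597 in rhCYGB mice.

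Of 8 genes of the vitamin K cycle and of factor secretion, 3 were higher and 5 lower. Vkorc1, which recycles vitamin K, lay at 67.2, 131 and 94.9 CPM in vehicle mice and 79.4, 279 and 414 CPM in rhCYGB mice. It was above all vehicle libraries in rhCYGB replicates 2 and 3 and within their range in replicate 1. Pdia4, a disulfide isomerase of the secretory pathway, was 226 ± 49.5 CPM in vehicle mice and 133 ± 32.7 in rhCYGB mice, with all rhCYGB libraries below all vehicle libraries and an edgeR adjusted p of 0.523. Of 8 plasminogen receptors and surface regulators, Plaur included, 5 were higher and 3 lower. Eno1, an enolase that binds plasminogen at the cell surface, was 671 ± 138 CPM in vehicle mice and 1178 ± 519.6 in rhCYGB mice, and Lrp1, which clears protease and inhibitor complexes, was 412 ± 30.9 CPM in vehicle mice and 453 ± 78.5 in rhCYGB mice.

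The thrombin receptor F2r and F2rl1, a receptor of trypsin-like proteases, were lower in fitted value, at 32.6 ± 7.26 CPM in vehicle mice and 21.7 ± 15.1 in rhCYGB mice for F2r and 4.07 ± 1.44 CPM in vehicle mice and 2.06 ± 2.69 in rhCYGB mice for F2rl1. Of 9 tested genes of platelet adhesion and Vwf handling 5 were higher and 4 lower. Asgr1 and Asgr2, subunits of the receptor that clears desialylated glycoproteins, were 329.9 ± 75.4 CPM in vehicle mice and 482 ± 103 in rhCYGB mice and 130.1 ± 44.0 CPM in vehicle mice and 244 ± 90.5 in rhCYGB mice. Of 8 transcription factors of hepatocyte clotting genes 5 were higher and 3 lower. Hnf4a lay at 334, 393 and 409 CPM in vehicle mice and 472, 519.9 and 996 CPM in rhCYGB mice, with every rhCYGB library above every vehicle library, and Cebpa lay at 141, 220.1 and 172 CPM in vehicle mice and 222, 88.5 and 89.8 CPM in rhCYGB mice, lowest in rhCYGB replicates 2 and 3. Neither passed the threshold in edgeR (adjusted p = 0.523 and 0.641).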

How the data were processed

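Liver poly(A) RNA of 6 mice, 3 per group, was measured by paired-end RNA sequencing. The authors deposited an estimated count, already a whole number, and an FPKM value per library for each gene and each transcript. The submitters' processing notes name HISAT2 2.1.0, StringTie 1.3.4d, FastQC 0.11.7 and the build mm10. The strand setting and the annotation release were not given in the sources used here, and reads of overlapping and antisense genes cannot be told apart. Members F5, F13a1, Serpinc1 and Plg overlap exons of a gene on the other strand.

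Here the counts were tested in R 4.3.3 with edgeR 4.0.16: filterByExpr, TMM scaling, robust dispersions and the quasi-likelihood F test. P-values were adjusted by Benjamini-Hochberg over all 14415 genes or 19664 transcripts, with a threshold of 0.05. TPM is the deposited FPKM divided by its library sum. Alternatives used DESeq2 1.42.0, its size factors, upper-quartile factors, no filter, limma 3.58.1 on log2(TPM + 1) and log2(TPM + 0.1), offsets that remove a loess trend on transcript length, and leaving out each library. On data simulated from these libraries the test recovered 0% of 2-fold, 28% of 4-fold and 83% of 8-fold changes for this comparison (14242, 14225 and 14235 genes), and called 0 genes when nothing changed. Of its calls, 3 of 59 were false at 4-fold and 11 of 177 at 8-fold. Genes were simulated independently, so the shared split of rhCYGB replicates 2 and 3 from replicate 1 was not in them. Estimated counts carry the counting error of their reads and that of dividing reads among transcripts, and the spread between mice holds both.

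All 31 members are named. Of other pathway genes, each list gives those past the threshold, filled up to 2 with those of highest mean CPM; transcripts follow a like rule by mean FPKM. Members and lists were chosen with earlier results of these data known. Promoters come from RefSeq, exon overlaps and shared 100-base windows from GENCODE M21 on the same build.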

Additional observations from a re-analysis of the deposited data

How the results depend on the processing

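DESeq2 called 65 of the 1558 genes it gave an adjusted p to, and 1 member (Hrg). In edgeR, which adjusted over 14415 genes, 0 genes and 0 members were called, so the 2 counts rest on unlike sets of genes. Leaving out each library in turn gave 0 to 3391 genes, 0 to 9 members and 0 to 2 member transcripts past the threshold, and the high ends all came from leaving out rhCYGB replicate 1. On log2(TPM + 1) and log2(TPM + 0.1) the members' median was -0.46 and -0.50, beside -0.51 and -0.75 for all genes, and 6 members were above 0 on each.

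Under every alternative run, 14 members kept the sign of their log2 fold change, and 17 changed it under at least 1. In limma on log2(TPM + 1), then log2(TPM + 0.1), the reversed values were -0.29 and -0.29 for F2, F7 and Plg, -0.35 and -0.35 for F9, -0.26 and -0.26 for Pros1, -0.14 and -0.15 for Klkb1, -0.46 and -0.47 for F5, -0.36 and -0.60 for F8, -0.49 and -0.50 for Serpinc1, -0.64 and -0.64 for Serpind1, -0.50 and -0.50 for Serpina10, -0.33 and -0.33 for Serpinf2, and -0.46 and -0.46 for Cpb2. F11 and Vwf were 0.020 and 0.018 with DESeq2 size factors, and 0.013 and 0.0085 in DESeq2. Upper-quartile factors gave -0.058 for F8 and -0.029 for Serpind1, and removal of the length trend gave 0.50 for Vwf. Leaving out 1 library gave ranges of -0.12 to 0.13 for F11, -0.088 to 0.21 for F8, -0.26 to 0.15 for Vwf, -0.71 to 0.18 for F13b, -0.53 to 0.16 for Thbd and -0.015 to 0.18 for Serpind1. The cause of each reversal was not tested. Among genes with an unadjusted p under 0.05, 74.6% were higher under TMM, 52.0% under upper-quartile factors and 7.75% on log2(TPM + 1). No paired analysis was possible because the labels give the animals no numbers shared by the 2 groups.

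Limits: 3 mice per group, 1 of which lay with the other group, and a test that recovered 0% of simulated 2-fold changes leave smaller differences among these genes undetectable here.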

Other observations

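The genes around Hrg, Kng2 and Kng1 were examined after the values of these members had been seen. The reference lists 24 genes within 100000 bases of the 3 on chromosome 16, and 10 of these, the members included, were tested. Ahsg and Fetub, next to Hrg, encode fetuin-A and fetuin-B, secreted liver proteins that belong with histidine-rich glycoprotein and the kininogens to the cystatin superfamily. Ahsg lay at 6567, 12570 and 10337 CPM in vehicle mice and 7958, 26147 and 30146 CPM in rhCYGB mice. Fetub lay at 202, 440.4 and 326 CPM in vehicle mice and 297, 805 and 1635 CPM in rhCYGB mice. Both were within the vehicle range in rhCYGB replicate 1 and above it in replicates 2 and 3, as Hrg, Kng1 and Kng2 were. Genes outside this neighbourhood, such as Apoa1 and Apoe, lay in that way too. Apoa1 lay at 3185, 9486 and 7693 CPM in vehicle mice and 6117, 25698 and 30102 CPM in rhCYGB mice. How many genes share this order was not counted, and a part of gene position was not tested. The log2 fold changes of Ahsg and Fetub were 1.12 (SE 0.60) and 1.5 (SE 0.63), each with an edgeR adjusted p of 0.523.

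The tested genes further out had fitted values below 0. Dnajb11, a chaperone gene, had a log2 fold change of -0.20, Tbccd1 of -0.28, Eif4a2, a translation factor gene, of -0.47 and Rfc4, a replication factor gene, of -0.08. The predicted gene Gm30505, which overlaps the span of Ahsg, was at 1.5 with fewer than 4 CPM in every library. The TPM ratio of Hrg to Kng1, also chosen after the values were seen, was 0.274, 0.225 and 0.248 in vehicle mice and 0.280, 0.285 and 0.639 in rhCYGB mice, so Hrg parted from its neighbour in rhCYGB replicate 3.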
